A study of Danio rerio with 20 samples.

Results

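GANT-61 is a small molecule found in a screen for blockers of the gli transcription factors. Gene expression after exposure to it was compared with an ethanol control in zebrafish embryos, taken whole 24 h after fertilization. The members of the comparison are the 5 arrays titled GANT and the 5 titled EtOH, 10 of the 20 arrays in the series, and 11335 of the 14657 genes on the array, each with a probe well above background on at least 4 of 5 arrays of 1 of these groups. Embryos were kept from 0.5 to 24 h after fertilization in 10 µM GANT-61 or in 0.1% ethanol, and each array carried total RNA from 1 of 5 independent replicates of 100 embryos. The other arrays held embryos exposed for the same hours to 10 µM cyclopamine or 10 µM SANT-2, 5 arrays each, and are used here to show where GANT-61 differed. The sources used here give no strain or genotype. RNA from 100 whole embryos gives 1 value per gene, so that fewer cells of a type and less RNA per cell cannot be told apart in any value that follows.

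In hedgehog signalling, secreted ligands such as shha bind patched receptors, which then release smo, a membrane protein that cyclopamine and SANT-2 are known to block. Active smo lets gli transcription factors turn on target genes, and GANT-61 was described as acting on these factors below smo. In the zebrafish embryo the pathway patterns the ventral neural tube, the slow muscle precursors and the sclerotome.

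Levels are given as log2 intensity relative to the 75th percentile of the same array, so that 0 is the level of a probe at that percentile. Changes are differences of these levels from 1 linear model over all 20 arrays, with group and slide as terms, and stand with their standard error (SE). The threshold for a call was an adjusted p of 0.05 (limma, Benjamini-Hochberg over all 11335 genes), and "rose", "fell" and "higher" or "lower" with a count refer to called genes.

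The arrays lay on 4 slides that each held all 4 groups, and the slide took 90.16% of the first principal component, which held 40.82% of the variance. Slide 2, with ethanol 3 and GANT-61 2, was dimmer than the rest. The 75th percentile of the signal was 1577 ± 535 (SD, n = 5) on the ethanol arrays and 1167 ± 259 on the GANT-61 arrays. GANT-61 over ethanol it was 0.712, 1.07, 0.82 and 0.71 on slides 1 to 4, so that GANT-61 arrays were dimmer on 3 of the 4 slides. The SANT-2 arrays, at 1150 ± 368, lay closer to those of GANT-61. Between 10713 and 12515 probes were well above background on the ethanol arrays and between 10959 and 12087 on the GANT-61 arrays. Markers of the tissues of a 24 h embryo were measured, with 26 of 27 muscle, 26 of 27 neuronal, 19 of 19 erythroid and 7 of 7 hatching gland genes on the array passing the filter.

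The array ethanol 4 stood apart from the other 4 ethanol arrays. This was measured on 27 genes chosen from differences that hold no ethanol mean. They were at least 2-fold higher with GANT-61 than with both SANT-2 and cyclopamine at an adjusted p under 0.05 each. The ethanol arrays still entered this choice through the spread and slide terms of the model and the filter on background. On a scale where the mean of the SANT-2 and cyclopamine arrays is 0% and the GANT-61 mean is 100% of the log2 difference, the median gene lay at 8.95%, -5.74%, 0.539%, 68.7% and 12.6% on ethanol 1 to 5. Ethanol 4 was the highest of the 5 ethanol arrays for 23 of the 27 genes. The SANT-2 and cyclopamine arrays of the same slide lay at 2.93% and -1.5%. These arrays are among those whose mean sets 0%, so values near 0% are in part fixed by the scale. They are no separate check on the slide. On linear signal ethanol 4 lay at 52.1%. What set this array apart was not tested. It raises the ethanol mean of these genes, so changes are also given without it below. Without ethanol 4, 161 genes were called, of which 128 were among the 204 called with all arrays.

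**Figure D1:**
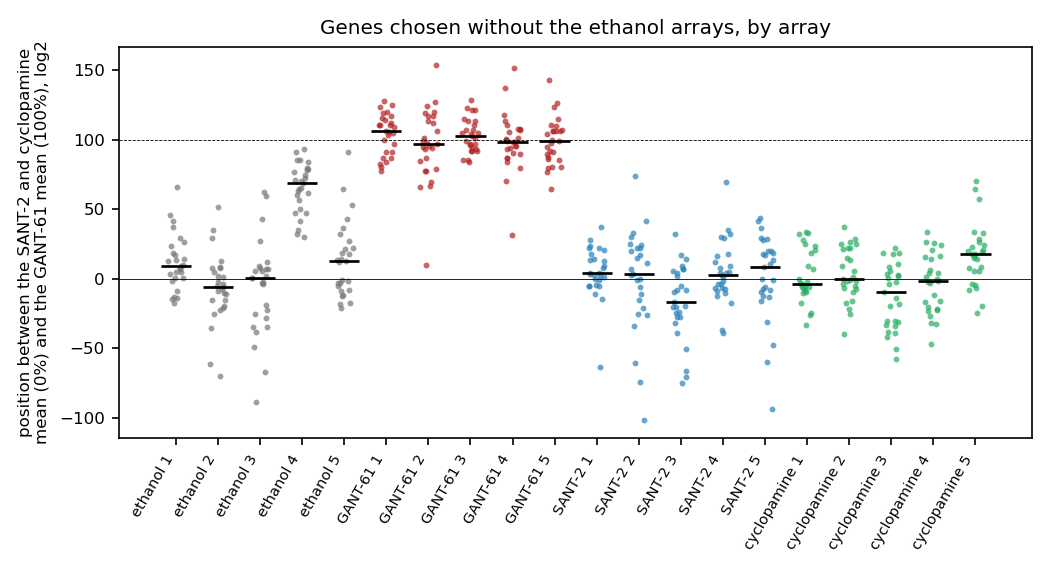
Position of each array between the mean of the SANT-2 and cyclopamine arrays (0%) and the GANT-61 mean (100%) on the log2 scale, for the 27 genes chosen without the ethanol arrays. Each point is 1 gene and each bar the median. The median on ethanol 4 was 68.7%, against -5.74% to 12.6% on the other 4 ethanol arrays.

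The first question the design puts is whether a compound aimed at gli factors lowered genes that answer to hedgehog signalling. Of 25 measured hedgehog-responsive genes, 0 were called with GANT-61, against 1.80% of all genes tested. With only 25 genes, 0 calls cannot be told from that share. At an unadjusted p under 0.05, 1 of them was higher and 1 lower (12.5% and 4.57% of all genes). Their median change was 0.07, and that of all genes tested 0.05. For 24 of the 25 the 95% interval of the change excluded a 2-fold fall. The exception was en1a, which marks muscle pioneer cells and the midbrain-hindbrain boundary, with a change of -0.54 ± 0.34 (95% interval -1.26 to 0.19). With cyclopamine, 15 of the 25 were called lower than ethanol and 0 higher, against 1.72% and 0.503% of all genes tested. With SANT-2, 0 of the 25 were called, as were 0 of all 11335 genes, and their median change was -0.003. A lack of calls on this list was therefore not particular to GANT-61.

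The gene nkx2.2a, a homeobox gene of the ventral neural tube next to the floor plate, shows the contrast with cyclopamine. Its level was -0.69, -0.71, -0.35, -0.66 and -0.69 on the ethanol arrays and -0.49, -0.42, -0.54, -0.99 and -0.36 on the GANT-61 arrays. These groups overlapped, and the change of 0.08 ± 0.17 had a 95% interval of -0.28 to 0.45. On the cyclopamine arrays the level lay between -4.87 and -3.59, under every other array. GANT-61 was higher than cyclopamine by 4.00 (adjusted p = 1.3e-09). With SANT-2 the change of nkx2.2a against ethanol was -0.08.

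The same held for olig2, which is needed for motor neurons and oligodendrocytes. It lay between 0.21 and 0.51 on the ethanol arrays, between 0.09 and 0.56 on the GANT-61 arrays and between -3.04 and -1.73 on the cyclopamine arrays. Its change with GANT-61 was -0.07 ± 0.17 (95% interval -0.43 to 0.28). The gene nkx2.9 was not well above background on any cyclopamine array, where it was at least 6.87-fold lower than with GANT-61 (adjusted p = 1.25e-05 in the model). Against ethanol it changed by 0.08 ± 0.41 with GANT-61.

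In the mesoderm, foxf1, a forkhead gene of sclerotome and gut mesenchyme, lay between -3.39 and -3.10 on the ethanol arrays and between -3.43 and -2.96 on the GANT-61 arrays. The levels of nkx3-2, a sclerotome gene, ran from -0.54 to 0.03 and from -0.44 to 0.16. Both groups overlapped for both genes, and the changes were 0.01 ± 0.17 and 0.21 ± 0.25. In all, 17 of the 25 hedgehog-responsive genes were called higher with GANT-61 than with cyclopamine, against 3.63% of all genes tested. The dose was 10 µM for each compound.

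The genes of the pathway itself gave 0 calls among 23 measured, against 1.80% of all genes tested. At an unadjusted p under 0.05 there were 2, against 17.1% of all genes. A list of this size is too short for 0 calls to be told from that share. Among ligands, shha changed by 0.03 ± 0.12, shhb by 0.17 ± 0.09, ihha by 0.33 ± 0.22 and ihhb by 0.26 ± 0.19. Of the genes for release and reception, disp1, which releases the ligand, changed by 0.33 ± 0.18, the coreceptors cdon by 0.19 ± 0.12 and gas1b by -0.01 ± 0.09, and smo by 0.07 ± 0.10. The inhibitor hhip, itself a hedgehog target, changed by 0.35 ± 0.22. At the end of the pathway, gli2a changed by -0.01 ± 0.11, gli2b by 0.25 ± 0.18 and sufu, which holds gli factors back, by -0.12 ± 0.07. The kinesin gene kif7 and the ciliary gene dzip1 changed by -0.05 ± 0.07 and -0.27 ± 0.09, and scube2, which helps to release the ligand, by -0.09 ± 0.17. The largest change was that of gli3, from levels of -1.33 to -0.88 with ethanol to -0.95 to -0.48 with GANT-61. This was 0.36 ± 0.11 with an adjusted p of 0.105. For all 23 genes the 95% interval excluded a 2-fold change in either direction.

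**Figure D2:**
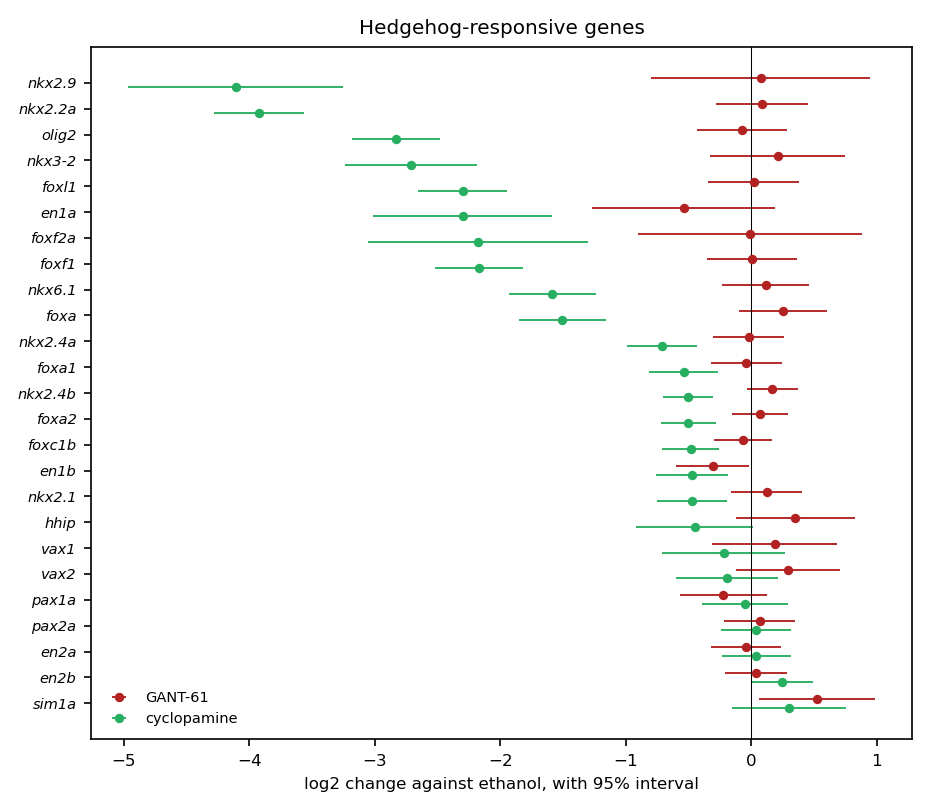
Log2 change against ethanol of the 25 measured hedgehog-responsive genes with GANT-61 (red) and cyclopamine (green), with 95% intervals from the model over 20 arrays (5 per group). The GANT-61 changes lie between -0.54 (en1a) and 0.52 (sim1a), and 15 genes were called lower with cyclopamine. With cyclopamine nkx2.9 was not well above background on any array.

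Over all genes, 204 of 11335 were called with GANT-61 (1.80%), 183 higher and 21 lower. At least a 2-fold change was reached by 38 of the higher and 2 of the lower. For 198 of the 204 the GANT-61 arrays differed from ethanol in 1 direction on all 4 slides. The calls were made on these same arrays and slides, so that this count is no separate support. The share over all genes was not counted. The 5 GANT-61 arrays lay clear of all 5 ethanol arrays for 63 of the called genes and for 1.54% of all genes tested, and among the 183 rises for 56, against 1.21% of all genes. Of the called genes, 132 have a gene symbol that is not a clone name, 12 have a clone name and 60 have none. The number depended strongly on how the spread was modelled. The 10 arrays alone with slide as a block gave 0 calls at a smallest adjusted p of 0.0503, with 1667 genes at an unadjusted p under 0.05, and the full model without slide gave 18. Without single arrays it ran from 30 (without ethanol 5) to 204 (without ethanol 3), being 51 without ethanol 2, 77 without ethanol 1, 39, 86 and 44 without GANT-61 1, 3 and 5, and 170 and 198 without GANT-61 2 and 4. Subtracting the background and adding 50 gave 800.

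**Figure D3:**
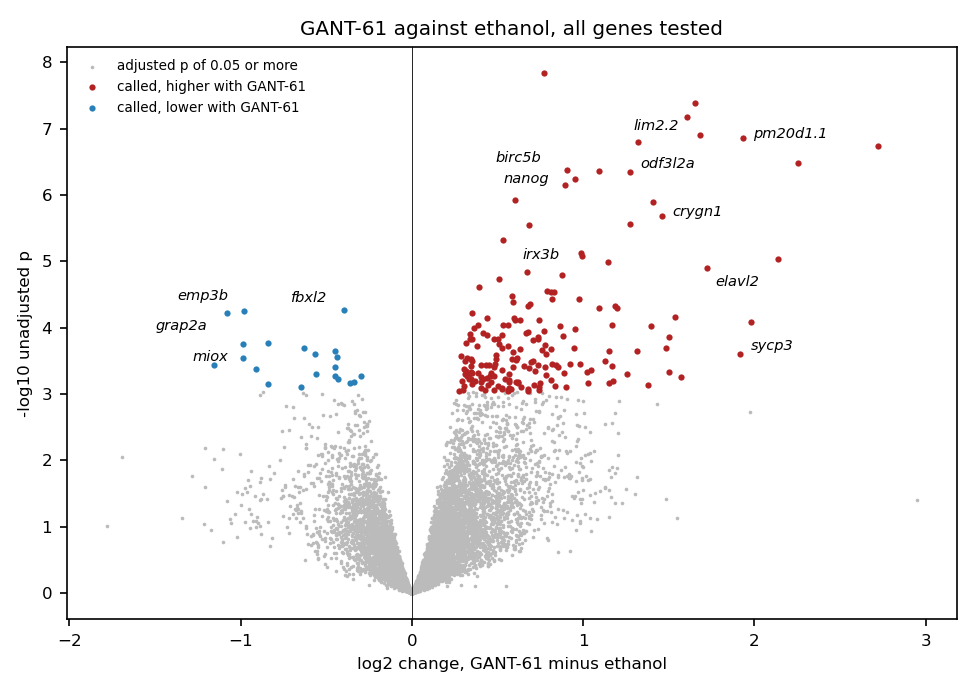
Log2 change of GANT-61 minus ethanol against -log10 of the unadjusted p for all 11335 genes tested (limma, 20 arrays, 5 per group). Red and blue points are the 183 genes called higher and the 21 called lower.

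The largest rises belonged to a clone-named pair, si:ch211-51a19.5 at 2.72 ± 0.31 and si:ch73-359m17.2 at 2.25 ± 0.27 (adjusted p = 0.000296 and 0.000461), singled out after their values were seen. Among genes with a full name the largest rise was that of pm20d1.1, whose mammalian relative is a secreted enzyme that joins fatty acids to amino acids. It lay at -4.25, -4.16, -3.98, -2.36 and -3.90 on ethanol 1 to 5 and at -2.11, -1.72, -1.32, -1.47 and -1.67 on the GANT-61 arrays. Every GANT-61 array was above every ethanol array, with ethanol 4 nearest to them. The 10 arrays of SANT-2 and cyclopamine lay between -4.49 and -4.00. The rise against ethanol was 1.93 ± 0.22, or 3.82-fold (adjusted p = 0.000296), and 2.3 without ethanol 4. On slides 1 to 4 it was 2.09, 2.26, 0.97 and 2.23, the smallest on the slide of ethanol 4. Against SANT-2 the difference was 2.44 (adjusted p = 4.97e-05). The gene passed under 27 of 31 alternative settings. Of the other 5 measured genes of related peptidases 0 were called, too few genes to be told from the 1.80% of all genes called. The closest relative of pm20d1.1 by name, pm20d1.2, changed by 0.16 ± 0.32.

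Genes known from oocytes, germ cells and the maternal RNA of the egg were among the rises. Of 29 measured germ cell and maternal genes 7 were called higher and 0 lower, against 1.61% and 0.185% of all genes. This list was drawn up with earlier results of these data known and holds elavl2, sycp3 and birc5b. Its counts and mean level are therefore no independent support. The 7 calls became 3 without ethanol 2, ethanol 5, GANT-61 1 or GANT-61 5, 4 without GANT-61 2 or 3, 2 without slide as a block and 0 on the 10 arrays alone. Over genes above background on all 10 arrays, 6 of 25 were called. The median change was 0.48, and 26 of the 29 changes were above 0, as were 59.7% of all changes. The mean log2 level of the list lay between -2.92 and -2.68 on the ethanol arrays and between -2.46 and -1.96 on the GANT-61 arrays, with no overlap. On the SANT-2 and cyclopamine arrays it ran from -2.98 to -2.33. Ethanol 4, at -2.77, did not stand apart on this list mean.

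The gene elavl2 codes for an RNA-binding protein of neurons that is also found in germ cells. Its level was -2.99, -2.83, -2.85, -1.54 and -3.26 on ethanol 1 to 5 and -0.75, -0.60, -1.11, -1.15 and -1.11 on GANT-61 1 to 5. All GANT-61 arrays were higher, and ethanol 4 was again the nearest. It rose by 1.72 ± 0.28 (adjusted p = 0.00588), or by 2.16 without ethanol 4 (adjusted p = 7.35e-06). On slide 3 alone the difference was 0.41, and on the other slides 2.15, 2.25 and 2.15. The relatives elavl1a and elavl4 changed by 0.04 ± 0.10 and -0.15 ± 0.23.

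Of the genes of meiosis, sycp3, a core component of the synaptonemal complex, rose by 1.92 ± 0.41 (adjusted p = 0.0294). It lay between -5.87 and -3.33 with ethanol and between -2.93 and -1.88 with GANT-61, and was well above background on 4 of 5 ethanol arrays. The gene spdya, of a family that activates cyclin-dependent kinases in oocyte maturation in Xenopus, rose by 0.99 ± 0.15 (adjusted p = 0.00456). Its lowest GANT-61 array, at -3.05, lay just under ethanol 4, at -3.04. The oocyte transcription factor figla rose by 1.17 ± 0.26, was above background on 3 of 5 ethanol arrays, and lay 0.80 and 0.76 above ethanol with SANT-2 and cyclopamine (adjusted p = 0.159 for the latter). Without ethanol 4 it missed the threshold, at 1.23 (adjusted p = 0.0569).

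The gene nanog, a maternal transcription factor that helps to start the zygotic genome in zebrafish, lay at -3.04, -3.02, -2.94, -3.24 and -3.34 with ethanol and at -2.26, -1.71, -2.24, -2.82 and -2.21 with GANT-61. The groups did not overlap, and ethanol 4 was not high. The rise was 0.95 ± 0.12 (adjusted p = 0.000542), or 1.93-fold, and was present on each slide, from 0.71 to 1.24. The gene birc5b, a copy of survivin, which acts at the centromere in cell division, rose by 0.90 ± 0.11 (adjusted p = 0.000466) from between -4.40 and -3.77 to between -3.42 and -2.97. Its relatives birc5a and birc2 changed by 0.11 ± 0.10 and -0.08 ± 0.07.

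Among further members, piwil1, which binds piRNAs in the germ line, rose by 0.88 ± 0.18, and the linker histone gene h1-10 by 0.72 ± 0.17. A list of meiosis and oocyte genes drawn up after these values were seen held 20 measured genes. Of these 10 were called higher, against 1.61% of all genes, or 4 to 9 when 1 array was left out. The list added gdf3, a maternal signal for mesendoderm that rose by 0.81 ± 0.19. It also added the histone methyltransferase gene suv39h1a (0.78 ± 0.16) and the mismatch repair gene msh6 (0.59 ± 0.12). Of these 3 genes, gdf3 missed the threshold without ethanol 4 (0.87, adjusted p = 0.0616). That list is no independent support either. Other germ cell genes were not called. The changes were -0.18 ± 0.10 for ddx4, the vasa gene, and 0.10 ± 0.10 for nanos3, with 0.35 ± 0.19 for dazl. Egg envelope and oocyte growth factor genes were not called either, with 0.53 for zp3, 0.63 for bmp15 and -0.13 for gdf9. These germ cell and oocyte genes, and h1-10 and the called members of the added lists, were picked after their values were seen.

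**Figure D4:**
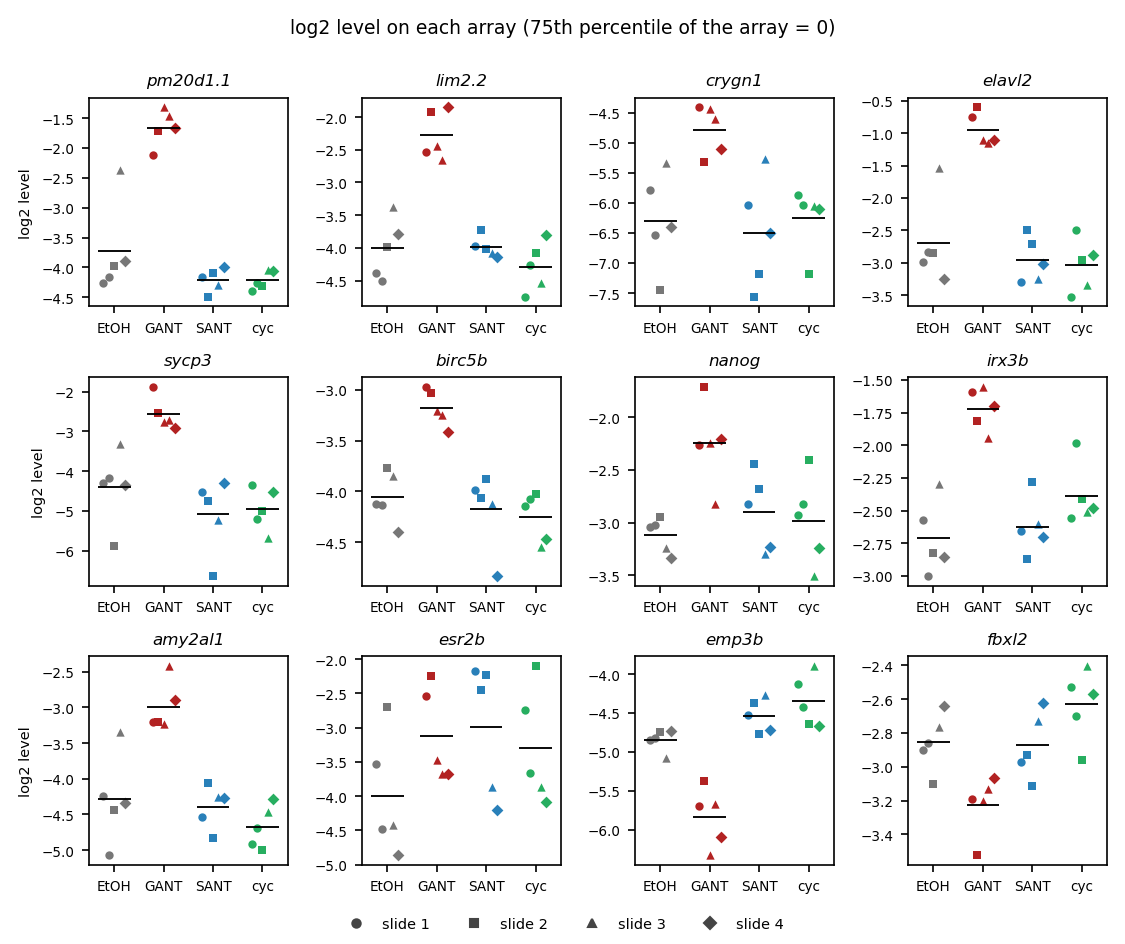
Log2 level of 12 genes on each of the 20 arrays, relative to the 75th percentile of the array, by group (EtOH, ethanol; GANT, GANT-61; SANT, SANT-2; cyc, cyclopamine). Symbols mark the slide and bars the mean of 5 arrays. For pm20d1.1, elavl2 and sycp3 the ethanol array on slide 3 lies between the other ethanol arrays and the GANT-61 arrays.

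Some lens genes rose and others did not. Of 15 measured lens genes 4 were called higher and 0 lower, against 1.61% and 0.185% of all genes. The calls became 2 without ethanol 5, GANT-61 1 or GANT-61 5, and over genes above background on all 10 arrays they were 3 of 12. The median change was 0.12 and turned to -0.03 under quantile normalization and in the authors' table. The gene lim2.2 codes for a membrane protein of lens fibre cells. It lay at -4.38, -4.50, -3.99, -3.37 and -3.79 with ethanol and at -2.53, -1.93, -2.44, -2.66 and -1.85 with GANT-61, without overlap. The rise was 1.68 ± 0.19 (adjusted p = 0.000296), or 3.21-fold, and it passed under 28 of 31 alternative settings. The crystallin genes crygn1 and crygn2 rose by 1.46 ± 0.20 and 1.2 ± 0.22 (adjusted p = 0.00146 and 0.0144). The first was above background on 3 of 5 ethanol arrays. The third crystallin gene called, crygmx, rose by 0.68 ± 0.17 (adjusted p = 0.0496) and lay 0.49 and 0.80 above ethanol with SANT-2 and cyclopamine. It missed the threshold without ethanol 4 (0.64, adjusted p = 0.123). The galectin-related lens gene grifin, not on the list, rose by 1.18 ± 0.28 but was above background on 2 of 5 ethanol and 4 of 5 GANT-61 arrays. The beta crystallin genes cryba1b and crybb1 had changes of -0.83 ± 0.61 and -0.56 ± 0.39. They were chosen here as the lowest of the list.

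Cone photoreceptor genes, arr3a included, were looked at after these values were seen. Of 9 measured, 2 were called higher, against 1.61% of all genes. This became 0 without ethanol 5 or GANT-61 1, and 1 without ethanol 1, 2 or 3 or GANT-61 2, 3 or 5. The blue-sensitive opsin gene opn1sw2 rose by 0.69 ± 0.12 (adjusted p = 0.0137), from between -4.70 and -3.65 to between -3.72 and -3.35, with ethanol 4 as the ethanol array inside the GANT-61 range. The gene pde6c, for the cone phosphodiesterase, rose by 0.89 ± 0.20 (adjusted p = 0.0385) from between -1.82 and -1.14 to between -0.79 and -0.27, without overlap. Cone arrestin, arr3a, changed by 1.43 ± 0.37 and missed the threshold (adjusted p = 0.0622), but passed without ethanol 4 (1.71, adjusted p = 0.0465). Without that array pde6c missed it (0.96, adjusted p = 0.0547). Against SANT-2 the differences of opn1sw2 and pde6c were 0.96 and 1.38 (adjusted p = 0.00069 and 0.00227). Of 17 eye field and retina genes 0 were called.

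The amylase genes were the called members of 16 pancreas genes, 2 higher and 0 lower, against 1.61% and 0.185% of all genes. Neither was called without ethanol 5, GANT-61 1 or GANT-61 5, and 1 was without ethanol 2. The gene amy2al1 rose by 1.18 ± 0.21 (adjusted p = 0.0142), from between -5.07 and -3.35 to between -3.24 and -2.42, and amy2a rose by 0.87 ± 0.17 (adjusted p = 0.019). For both, the groups did not overlap. The insulin gene insb changed by 0.64 ± 0.19 (adjusted p = 0.0993). The elastase gene cela1.6, an exocrine enzyme gene not on that list, fell by 0.84 on the log2 scale, from between -4.29 and -3.23 to between -4.80 and -4.26 (adjusted p = 0.025), and these ranges just touched.

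Single members of other families rose. The iroquois list, like the other small family lists, was drawn up around genes reported earlier from these arrays. A called member in each is therefore no independent support. In the iroquois family of homeobox genes, which pattern neural tube and heart, irx3b lay at -2.57, -3.0, -2.82, -2.3 and -2.86 with ethanol and at -1.59, -1.82, -1.55, -1.95 and -1.70 with GANT-61. The groups did not overlap, and the rise of 0.99 ± 0.15 (adjusted p = 0.00418) was 1.13 without ethanol 4. The other 7 measured iroquois genes were not called, too few to be told from the 1.80% of all genes called. Their changes ran from -0.14 for irx4a to 0.44 for irx5b.

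The adaptor gene skap1, known from T cells, rose by 0.98 ± 0.17 (adjusted p = 0.0125). Its GANT-61 arrays lay between -3.18 and -2.87 and 4 of the ethanol arrays between -4.41 and -4.16, with ethanol 4 at -3.07 inside the GANT-61 range. On slide 3 its difference was 0.18, and on the others 1.2 to 1.31. Its relative skap2 changed by 0.18 ± 0.11. The scaffold gene lin7b went the other way by -0.89 ± 0.22 and missed the threshold (adjusted p = 0.0534). It passed without ethanol 4, at -1.10 (adjusted p = 0.0248), and lay 1.2 below SANT-2 (adjusted p = 0.0123).

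The receptor gene flt4, for vascular endothelial growth factor C in veins and lymphatics, rose by 0.81 ± 0.14 (adjusted p = 0.0107) and by 1.00 without ethanol 4. It was the called member of 17 vascular genes, whose median change was 0.22, against 1.61% of all genes called higher and a median of 0.05. The gene odf3l2a, of a family named for the outer dense fibres of sperm tails, rose by 1.28 ± 0.16 (adjusted p = 0.000466), with every GANT-61 array above every ethanol array. The zinc finger gene znfl2a rose by 0.67 ± 0.11 (adjusted p = 0.00646) while 13 of the 19 erythroid genes, the list it stood in, had changes below 0. Over all genes 4572 of 11335 had changes below 0. The gene asb16 rose by 1.57 ± 0.36 (adjusted p = 0.0398) and was above background on 3 of 5 ethanol arrays.

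A further set among the largest rises did not separate the ethanol and GANT-61 arrays. These were the transcription factor gene runx2b (1.5 ± 0.34), the translation factor subunit gene eif2b3 (1.26 ± 0.29), the immunoglobulin family gene igsf21a (1.17 ± 0.23), the P450 gene cyp2k6 (1.15 ± 0.24), the estrogen receptor gene esr2b (1.05 ± 0.24) and the nucleoside kinase gene uck1 (0.98 ± 0.22). With the slides pooled, the ethanol and GANT-61 arrays overlapped for all 6, as they did for 127 of the 183 called rises. For runx2b the ethanol arrays ran from -5.10 to -0.57 and the GANT-61 arrays from -2.56 to -0.35, with slide 2 highest in both groups. Without ethanol 4, runx2b, eif2b3 and esr2b missed the threshold, with changes of 1.43, 1.25 and 1.12 (adjusted p = 0.0874, 0.077 and 0.0554). The changes with SANT-2 and cyclopamine, which share the ethanol arrays, were 0.62 to 0.88 and 0.44 to 0.84 for these genes. Differences between GANT-61 and SANT-2 were 0.17 to 0.80, with adjusted p-values from 0.354 to 0.796. A difference particular to GANT-61 was therefore not shown for them.

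The genes that fell were fewer and their changes smaller. The 21 lower calls became 0 without ethanol 5, 3 without ethanol 2 or GANT-61 1 and 4 without GANT-61 5. They numbered 6 without ethanol 1, 8 without GANT-61 3 and 12 to 28 without any other single array. On the 10 arrays alone there were 0. The epithelial membrane protein gene emp3b lay at -4.85, -4.83, -4.75, -5.08 and -4.73 with ethanol and at -5.70, -5.38, -6.33, -5.67 and -6.09 with GANT-61. All GANT-61 arrays were lower, and it was above background on 2 of these 5. The change was -0.98 ± 0.18 (adjusted p = 0.0149), with -1.30 against SANT-2 (adjusted p = 0.00123). With the background subtracted and 50 added it was -0.0489 (adjusted p = 0.703). Of the other 5 genes of this family measured, 0 were called, too few genes to be told from the 1.80% of all genes called. Their changes ran from -0.07 for pmp22b to 0.05 for emp2.

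The inositol oxygenase gene miox, an enzyme gene of the kidney, was not well above background on any GANT-61 array and was at least 1.5-fold lower there (adjusted p = 0.0256 in the model). With the background subtracted and 50 added the change of miox was 0.0454, so that the sign of its change depended on this setting. The adaptor gene grap2a had a change of -1.08 ± 0.20 (adjusted p = 0.0154), the mitochondrial carrier gene sfxn5b one of -0.99 ± 0.21 (adjusted p = 0.0321), and both groups overlapped for both. The F-box gene fbxl2 changed by -0.40 ± 0.07 (adjusted p = 0.0149), and by a similar amount on each slide, from -0.43 to -0.31.

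Enzymes of sugar and lipid metabolism among the falls were gpd1b, which makes glycerol 3-phosphate, at -0.57 ± 0.12, and g6pc3, a glucose-6-phosphatase, at -0.45 ± 0.09. Genes of blood clotting made in the liver were serpind1, heparin cofactor II, at -0.63 ± 0.13 (adjusted p = 0.0269), and f9b, a factor IX gene, at -0.84 ± 0.20 (adjusted p = 0.0447, above background on 3 of 5 GANT-61 arrays). With the background subtracted and 50 added f9b changed by -0.0205 (adjusted p = 0.89). Of 16 coagulation and plasma protein genes, a list made after these values were seen, 13 had changes below 0, with a median of -0.20 and 2 calls. Over all genes 4572 of 11335 had changes below 0, the median was 0.05 and 0.185% were called lower. The mean level of that list overlapped widely between groups with the slides pooled, from -1.44 to -0.23 with ethanol and from -1.29 to -0.32 with GANT-61. On slide 1 GANT-61 lay at -1.16 against -0.71 and -0.23, and on slide 3 at -1.09 and -0.59 against -0.56. On slides 2 and 4 GANT-61 was the higher, at -0.32 against -0.36 and -1.29 against -1.44. Further falls were those of the checkpoint gene rad9a, tmem128 and the kinesin-associated gene kifap3a, with changes of -0.45 to -0.34. Without ethanol 4, f9b, rad9a and kifap3a missed the threshold, with changes of -0.90, -0.45 and -0.33 (adjusted p = 0.0646, 0.0694 and 0.0993).

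Differentiated muscle gave 0 calls, where 0.185% of all genes were called lower, so that lists of this size would hold under 1 call at that share. Of 26 fast and general muscle genes 21 had changes below 0, with a median of -0.30, and of 9 slow muscle genes 7, with a median of -0.17. Over all genes 4572 of 11335 had changes below 0. The spread between arrays was wide, the mean level of the fast and general list being 1.2 to 2.22 on the ethanol and 1.04 to 2.17 on the GANT-61 arrays. Both ranges were nearly the same. The lowest member, the parvalbumin gene pvalb1, picked for that, changed by -1.78 with an adjusted p of 0.381. The acetylcholine receptor gene chrna1 came closest to a call, at -0.41 ± 0.11 (adjusted p = 0.0622), and the myosin light chain gene myl4 changed by -1.21 ± 0.39 (adjusted p = 0.135). With cyclopamine 8 of the 9 slow muscle genes were called lower, against 1.72% of all genes tested. In the erythroid list klf1 changed by -0.96 ± 0.37 and alas2, the first enzyme of heme synthesis in red cells, by -0.44 ± 0.17, and neither was called.

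Genes that answer to chemical stress gave 1 or 2 calls a list, where 1.80% of all genes were called. The P450 genes cyp2k6 and cyp2p6 (0.56 ± 0.12, adjusted p = 0.0264) were called of 19 xenobiotic genes. The quinone reductase gene nqo1 rose by 0.30 ± 0.07 (adjusted p = 0.0492) and was the called gene of 20 for oxidative stress and of 11 targets of the aryl hydrocarbon receptor. The chaperone gene hspa8 rose by 0.43 ± 0.11 (adjusted p = 0.0496), 1 of 21 heat shock genes. Without ethanol 4, cyp2p6, nqo1 and hspa8 missed the threshold, with changes of 0.53, 0.29 and 0.49 (adjusted p = 0.0638, 0.11 and 0.0543). The unfolded protein response (27 genes), cholesterol synthesis (25) and lysosome (23) lists gave 0 calls. Among the p53 list of 23 and the cell cycle list of 29 the call was birc5b in both. The tissue lists of hatching gland, endoderm, somites, hindbrain, floor plate and notochord, heart and extracellular matrix also gave 0 calls. The oxidase subunit gene cybb rose by 0.48 ± 0.12 (adjusted p = 0.0492) among 12 myeloid genes and pts, an enzyme gene for pteridine cofactors and pigments, by 0.57 ± 0.14 (adjusted p = 0.0482) among 14 of neural crest and pigment. Without ethanol 4 both missed the threshold (adjusted p = 0.0606 and 0.0703). With SANT-2 and cyclopamine, which share the ethanol arrays, cybb changed by 0.27 and 0.40, pts by 0.40 and 0.57 and hspa8 by 0.25 and 0.40. The rise of pts with cyclopamine was itself called (adjusted p = 0.035). For cyp2p6 these changes were -0.001 and -0.09, and for nqo1 -0.03 and 0.13.

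**Figure D5:**
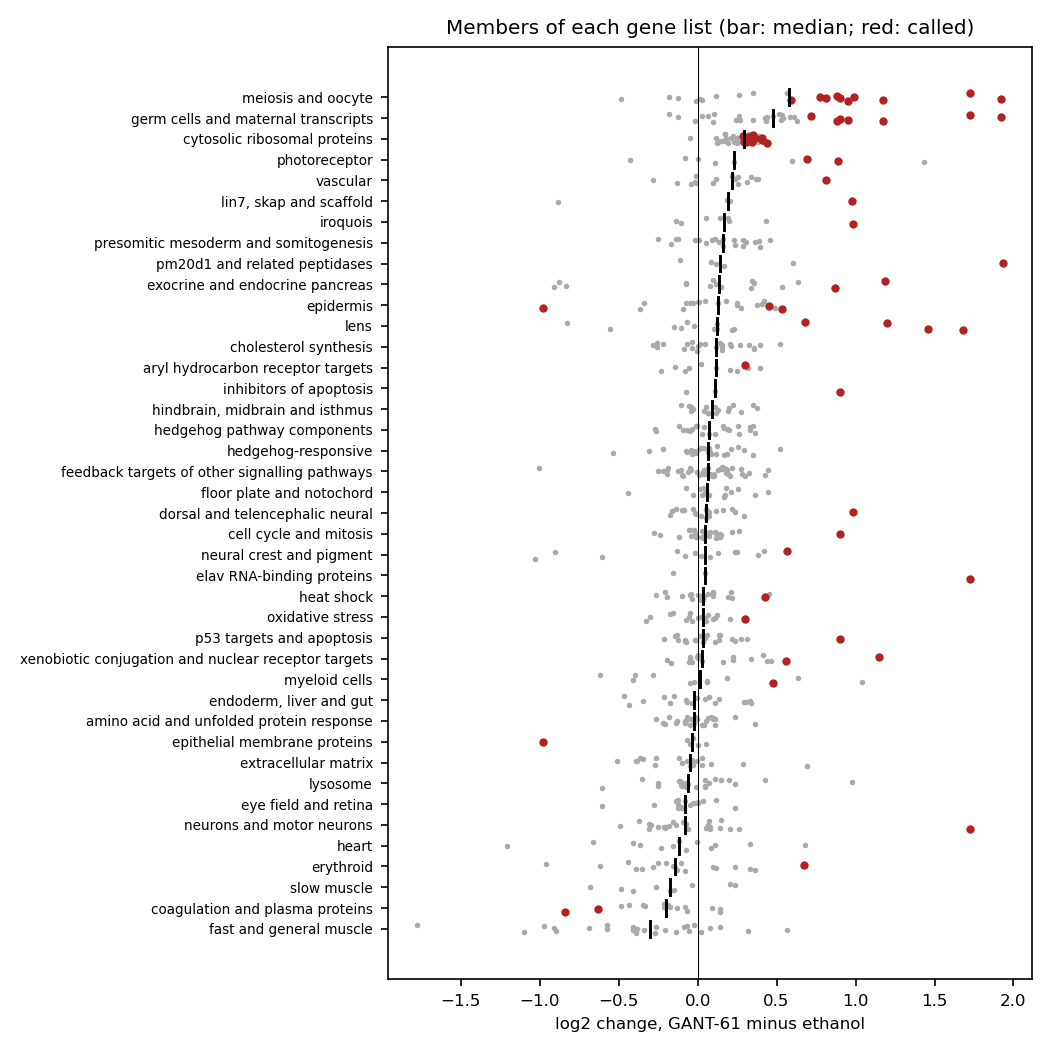
Log2 change of GANT-61 minus ethanol for each measured member of the gene lists, which hold from 3 to 56 measured genes. Grey points are genes not called, red points called genes and bars the median. The meiosis, photoreceptor, coagulation and ribosomal lists were added after the values were seen.

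Some abundant transcripts shifted by small amounts that depended on the scaling. Of 56 genes of cytosolic ribosomal proteins 16 were called higher, against 1.61% of all genes. Changes above 0 were found for 55 of them, against 59.7% of all genes, with a median of 0.29 against 0.05. The gene rpl13a, for example, lay between 7.24 and 7.82 with ethanol and between 7.67 and 8.11 with GANT-61, a change of 0.35 ± 0.07 (adjusted p = 0.0154). Under quantile normalization its change was -0.02 and the list had a median of 0.03 and 0 calls, and in the authors' table the median was 0.02, again with 0 calls. The 16 calls became 0 without ethanol 2, ethanol 5 or GANT-61 1, 1 without GANT-61 5, 2 without ethanol 1, 3 without GANT-61 3 and 7 without ethanol 4, and 0 without slide as a block. The list's median change was 0.15 with SANT-2 and 0.20 with cyclopamine. The keratin genes krt17 and krt92 of the epidermis rose by 0.53 ± 0.10 and 0.45 ± 0.10. The second missed the threshold without ethanol 4 (adjusted p = 0.0523), and neither passed under quantile normalization (adjusted p = 0.132 and 0.191). Changes also moved with signal. With the genes ranked by level in 10 equal bins, in the lowest bin the median change was 0.18 with GANT-61, 0.07 with SANT-2 and 0.03 with cyclopamine, in bin 7 it was -0.01, 0.01 and 0.01, and in the highest 0.10, 0.03 and 0.05. The part of array brightness in these shifts was not tested.

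Set directly against SANT-2, whose arrays were closer in brightness, GANT-61 was called higher for 83 genes (0.732% of those tested) and lower for 29 (0.256%). These differences hold no ethanol mean but come from the same model of 20 arrays. Against cyclopamine it was called higher for 412 (3.63%) and lower for 209 (1.84%). These were 0.988% and 5.48% of all genes in both directions together. Of the 204 genes called against ethanol, 75 were also called against SANT-2 in the same direction, and 92 against cyclopamine. Among the 183 rises these were 65 and 76. For the rest a difference from the other compound was not shown. The genes named below are among those called in both comparisons. SANT-2 against ethanol gave 0 calls of 11335, with 392 genes at an unadjusted p under 0.05. In these direct differences from SANT-2 and cyclopamine, pm20d1.1 was higher by 2.44 and 2.41, elavl2 by 2.05 and 2.07, lim2.2 by 1.75 and 1.96 and sycp3 by 2.42 and 2.46, all called. Lower than both were emp3b (-1.30 and -1.48), sfxn5b (-1.03 and -1.22) and fbxl2 (-0.42 and -0.62), all called too. The same comparisons gave irx3b differences of 0.88 and 0.66 and nanog differences of 0.80 and 0.82, each called. For the SANT-2 and cyclopamine comparisons the GANT-61 arrays are shared, as the ethanol arrays are in the comparisons with ethanol.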

How the data were processed

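Per the labels' protocols, Trizol-extracted RNA was converted to cRNA and labelled with Cy3, and hybridized to 1-colour Agilent arrays. Per the file headers, Feature Extraction 10.1.1.1 gave each spot an intensity with the background subtracted. Normalized log2 values in the table the authors deposited served as an alternative only. Its lowest correlation with the log2 intensities was 0.9975, and its centring and exact scaling are not given in the sources used here.

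From the intensities, outlier spots (1 to 18 an array) were left out, log2 was taken and the 75th percentile of each array's 14928 non-control spots was subtracted. Spots of a probe were averaged and the brightest probe of a gene was kept. Of 14694 probes, 9185 matched 1 symbol in a RefSeq gene table and 5509 none. One limma model (3.58.1, R 4.3.3) was fitted to 20 arrays with a mean per group and slide as a fixed block (11 to 13 residual degrees of freedom). Tests were two-sided. The number of arrays limits the precision. The steps were tested on simulated data.

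The replicates are called independent by the labels. Deviations from the group means correlated between ethanol and GANT-61 arrays of the same number by 0.59, -0.04, 0.16, 0.48 and 0.61, and arrays 1, 4 and 5, with the 3 highest values, share a slide. Since not every pair was over 0.1, the numbers were not taken to pair the arrays. Slide was left in these deviations, and the arrays numbered 2 and 3 lay on different slides. The check therefore cannot tell a pairing of replicates from a shared slide, and a pairing is not excluded. Named genes were the 20 largest rises and the falls among called genes with a full symbol (1 is not reported here), all measured hedgehog genes, all members of 6 small families and up to 4 members of each other list by smallest adjusted p. Exceptions are marked. The members, lists and tests were chosen with earlier results of these data known, so that counts over the lists are no independent support.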

Additional observations from a re-analysis of the deposited data

Results flagged for a closer look

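Each of 135 genes was checked for 1 array far from the other 4 of its group, and 29 of 270 groups had one. Chance alone marks about 1 in 20 groups, but over all genes checked the share was close to that of these 135 genes. Levels are log2 relative to the 75th percentile of the array, with the range of the other 4 arrays in parentheses. Ethanol 4 stood high for pm20d1.1 at -2.36 (-4.25 to -3.90), elavl2 at -1.54 (-3.26 to -2.83), skap1 at -3.07 (-4.41 to -4.16), si:ch211-51a19.5 at -0.85 (-3.41 to -2.88) and si:ch73-359m17.2 at -1.79 (-3.77 to -3.26). Ethanol 3, on the dimmest slide, stood high for odf3l2a at -3.60 (-5.00 to -4.66), eif2b3 at 4.85 (1.47 to 2.23), msh6 at 3.08 (1.70 to 2.04), krt92 at 7.21 (5.98 to 6.32), nkx2.2a at -0.35 (-0.71 to -0.66), cldn1 at 3.87 (2.64 to 2.9) and rps9 at 8.05 (6.90 to 7.2). It stood low for ihhb at -5.28 (-3.69 to -3.36), gas1b at -1.28 (-0.36 to 0.02), pm20d1.2 at -6.79 (-4.80 to -4.18), irx5b at -5.57 (-5.01 to -4.80) and tmem47 at 1.08 (1.73 to 1.99). On the same slide, GANT-61 2 was high for msh6 at 3.58 (2.3 to 2.66) and low for kifap3a at -2.08 (-1.70 to -1.59) and elavl4 at -5.05 (-3.79 to -3.31). GANT-61 4 was low for nkx2.2a at -0.99 (-0.54 to -0.36), foxa at 0.75 (1.44 to 1.62), scube2 at -4.64 (-4.02 to -3.82) and pm20d1.2 at -5.62 (-4.83 to -4.53) and high for cryba1b at -1.15 (-3.64 to -3.03) and slc4a1a at 0.68 (-0.30 to -0.03). Single cases were figla at -6.77 (-5.84 to -5.53) on ethanol 2, ctsl.1 at -4.69 (-3.79 to -3.57) on ethanol 5 and ddx4 at -3.36 (-3.06 to -2.98) on GANT-61 5, each the lowest of its group. Over all genes checked, 11314 with ethanol and 11326 with GANT-61, ethanol 3 was the high array for 668 and the low one for 514. For GANT-61 2 these counts were 331 and 248, and for ethanol 4 they were 44 and 56. For ethanol 1, 2 and 5 they were 12 and 8, 17 and 30, and 16 and 36. For GANT-61 1, 3, 4 and 5 they were 106 and 118, 19 and 13, 37 and 51, and 23 and 23. The part of these arrays in the changes was not tested beyond leaving each out.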

How the results depend on the processing

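The count of 204 genes called with GANT-61 against ethanol moved by over 1.5 times under many alternatives. It was 18 without slide as a block, and with the 10 ethanol and GANT-61 arrays alone it was 0 with slide (smallest adjusted p 0.0503, 1667 genes at an unadjusted p under 0.05) and 5 without. It was 114 after quantile normalization, 117 in the authors' table, 98 with no filter on dim probes and 40 at a 2-fold minimum. Normexp gave 1 call by either way of fitting, and its fit failed on 3 arrays, where the 5th percentile of the corrected signal was 177, 5240 and 5940 against 64.8 to 72.6 on the others. Median signal minus background plus 50, added after seeing the data, gave 800. Leaving out 1 array gave 30 to 204, and leaving out slides 1 to 4 gave 13, 430, 71 and 23. The share of higher calls was 89.7%, against 76.3% after quantile normalization, 76.4% with median scaling, 76.9% in the authors' table and 97% with background subtracted and 50 added. The median change of all genes was 0.05, and -0.01 to 0.07 with the other scalings and normexp, and 0.10 with background subtracted and 50 added. The cause of these shifts was not tested. The 25 hedgehog-responsive genes gave 0 calls under 30 of 31 alternatives and 1 (sim1a, adjusted p = 0.0476) with background subtracted and 50 added. With the replicate block in place of slide 138 genes were called, 92 of them among the 204, and with both blocks 221, 133 of them shared. The numbers were not taken to pair the arrays, since not every pair correlated over 0.1. That check cannot tell a pairing from a shared slide. Of 1850 values of the 60 called genes followed under each setting, 951 still passed, 895 did not and 4 changed sign. The last were miox at 0.0454 with background subtracted and 50 added, rpl13a at -0.0153 and rps21 at -0.012 after quantile normalization, and rps21 at -0.0189 in the authors' table.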
